A study of Mus musculus with 15 samples.

Results

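The genes described here were 8 markers of Schwann cells and myelin, namely Mbp, Prx, Pmp22, Mag, Sox10, S100b, Ngfr and Cdh19, followed as a readout of nerve regrowth in healed mouse skin. They were picked by gene symbol from a table of 18929 mouse genes, and all 8 passed the filter on low counts that left 15369 genes for testing. RNA was sequenced from the dorsal skin of BALB/c mice labelled WT, in 5 groups of 3 samples. Male mice 4 to 6 weeks old received full-thickness excisional wounds of 10 mm or 15 mm, which were filled with acellular Matrigel beads or with beads that carried human umbilical cord mesenchymal stem cells at high density, mixed with acellular beads (the HDB groups), and the remaining group was normal skin. All 4 wound groups thus shared the excision and the Matrigel. The methods give 2 times for the tissue, 4 weeks of implantation for sequencing and day 21 for the end of the wound experiment. The labels do not say whether the samples came from separate animals, so the p-values measure the spread between these samples, which may be technical.

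Schwann cells are the glia of peripheral nerves. In skin they wrap the larger sensory axons in myelin and hold the thin axons in unmyelinated bundles, and a wound cuts both. Sox10 is the transcription factor that keeps the whole lineage, and Cdh19 is a cadherin of that lineage. Mbp and Pmp22 are structural proteins of compact myelin, Mag sits on the myelin membrane that faces the axon, and Prx (periaxin) links the outer surface of the Schwann cell to its basal lamina. S100b is a calcium-binding protein of Schwann cells, also made by other cells, among them adipocytes and some dendritic cells. Ngfr (the p75 neurotrophin receptor) is carried by immature, non-myelinating and injured Schwann cells, and also by some cells of hair follicles. In bulk tissue, fewer Schwann cells and less of a transcript per Schwann cell cannot be told apart.

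The stretches of DNA just before the start of 4 members are shown because Prx, Mag and Pmp22 followed each other across the samples whereas Ngfr did not. They run from 219 to 20 bases before the outermost start among the RefSeq promoter entries (build GRCm38.p6), outside the gene as annotated, and are written along the strand of the gene. The Prx gene is annotated from the base after its stretch. Promoter entries were matched by symbol for 5 of the 8 members. Capitals mark the letters of ACAAAG or ACAATG, as bound by SOX factors, and of GNGTGGGNG, as bound by EGR factors, on either strand.
Prx promoter, chr7:27499105-27499304, plus strand: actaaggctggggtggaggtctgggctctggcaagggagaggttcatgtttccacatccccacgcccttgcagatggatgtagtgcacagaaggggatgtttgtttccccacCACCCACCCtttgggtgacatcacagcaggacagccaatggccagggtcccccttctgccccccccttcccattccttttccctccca
Mag promoter, chr7:30914942-30915141, minus strand: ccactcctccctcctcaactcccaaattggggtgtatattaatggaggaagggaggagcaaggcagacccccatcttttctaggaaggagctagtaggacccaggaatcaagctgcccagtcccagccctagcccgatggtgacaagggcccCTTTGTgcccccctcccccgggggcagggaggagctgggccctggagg
Pmp22 promoter, chr11:63128763-63128962, plus strand: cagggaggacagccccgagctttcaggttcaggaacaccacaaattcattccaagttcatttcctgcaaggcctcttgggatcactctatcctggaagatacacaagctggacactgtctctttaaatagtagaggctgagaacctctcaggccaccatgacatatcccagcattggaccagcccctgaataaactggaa
Ngfr promoter, chr11:95587718-95587917, minus strand: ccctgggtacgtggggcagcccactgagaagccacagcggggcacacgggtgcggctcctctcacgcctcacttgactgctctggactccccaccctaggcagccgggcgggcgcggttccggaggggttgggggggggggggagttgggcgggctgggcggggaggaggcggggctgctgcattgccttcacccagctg

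The Prx stretch held 1 match to GNGTGGGNG, which 10.5% of the 32851 mouse promoters held in the same 200-base window. The Mag stretch held 1 match to ACAAAG, present in 13.5% of them, and no stretch held ACAATG, present in 8.84%. Matches to these short words are a description of the letters and not of a bound site. The Ngfr stretch was the richest in the pair CG among the 4, with 13 of them, against 1 in Prx, 2 in Mag and 1 in Pmp22, and a median of 4 over all promoters. The genes themselves lie at chr7:27499305-27520041 (Prx), chr7:30899175-30914922 (Mag), chr11:63128982-63159547 (Pmp22) and chr11:95568818-95587698 (Ngfr).

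Total counts per sample ran from 15840551 to 18404188. Whole-skin markers were present in every library, with summed levels of 4184 to 25900 CPM (counts relative to library size, scaled with edgeR's TMM factors) for 12 fibroblast and dermal matrix genes and 1738 to 4821 CPM for 12 genes of the hair follicle outer sheath and dermal papilla. Acellular 15 mm replicate 1 stood apart, with 3136 CPM over 12 melanocyte genes and 22469 CPM over the 15 genes of the hair shaft and inner root sheath tested, against 124 to 214 CPM and 16.6 to 17.8 CPM in normal skin. The correlation of log2 CPM between samples of a group was 0.853 to 0.921 in the acellular 15 mm group and 0.983 to 0.989 in normal skin. Skeletal muscle markers, from the thin muscle sheet under mouse skin, summed to 63088 to 76905 CPM over 15 genes in normal skin and to 922 to 46551 CPM in the wounds. Endothelial markers summed to 903 to 1016 CPM in normal skin and to 156 to 694 CPM in the wounds. Smooth muscle and pericyte markers summed to 2954 to 4105 CPM in normal skin and to 784 to 2227 CPM in the wounds. The part of these differences in the results below was not tested.

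In normal skin, Pmp22 and Mbp were the most abundant members. Per kilobase of the median annotated transcript, Pmp22 stood at 574 ± 120 CPM and Mbp at 134 ± 17.2 CPM (SD, n = 3), followed by Prx at 18.1 ± 2.83, Cdh19 at 16.1 ± 1.78, Sox10 at 8.24 ± 1.35, Mag at 3.53 ± 0.511 and Ngfr at 1.71 ± 0.284. S100b lay between Sox10 and Mag. The summed level of the 8 members was 676 to 905 CPM in normal skin, 280 to 518 CPM in acellular 10 mm skin and 166 to 463 CPM in acellular 15 mm skin. It was 228 to 674 CPM in HDB 10 mm and 605 to 796 CPM in HDB 15 mm skin. Most of that sum was Pmp22 and Mbp, so it follows those genes.

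The myelin proteins came first. Mbp stood at 209, 243 and 271 CPM in normal skin, at 82.5, 146 and 97.4 CPM in acellular 10 mm skin and at 26.0, 99.7 and 129 CPM in acellular 15 mm skin. It stood at 185, 63.3 and 116 CPM in HDB 10 mm and at 197, 214 and 132 CPM in HDB 15 mm skin. Every acellular sample lay below every normal sample, and the HDB 15 mm group overlapped normal skin. Pmp22, whose dosage is critical for peripheral myelin, stood at 321, 486 and 457 CPM in normal, 130, 272 and 167 CPM in acellular 10 mm, and 76.0, 219 and 227 CPM in acellular 15 mm skin. In the HDB groups it stood at 347, 116 and 220 CPM at 10 mm and at 376, 430 and 380 CPM at 15 mm. The HDB 15 mm samples of Pmp22 all lay within the range of normal skin, and above every sample of the acellular group of the same size.

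Prx, the periaxin gene, stood at 70.3, 87.3 and 96.3 CPM in normal skin, at 18.8, 39.4 and 24.3 CPM in acellular 10 mm and at 11.8, 38.5 and 33.7 CPM in acellular 15 mm skin. Its levels were 65.0, 11.1 and 24.5 CPM in HDB 10 mm and 57.8, 72.9 and 37.7 CPM in HDB 15 mm skin. Only the HDB 15 mm group reached into the normal range, with 1 sample. Mag, the scarcest of the myelin members, stood at 6.96, 7.63 and 5.70 CPM in normal skin, at 1.48, 5.05 and 2.75 CPM in acellular 10 mm and at 0.850, 3.97 and 4.04 CPM in acellular 15 mm skin. It stood at 5.09, 2.53 and 3.72 CPM in HDB 10 mm and at 6.51, 7.09 and 4.52 CPM in HDB 15 mm skin. The order of the group means was the same for Mbp, Pmp22 and Mag, namely normal, HDB 15 mm, HDB 10 mm, acellular 10 mm and acellular 15 mm. For Prx the acellular groups changed places. Of the neighbours in these orders that were compared, no pair passed the test, and the samples of HDB 10 mm and acellular 15 mm skin overlapped for Prx.

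**Figure D1:**
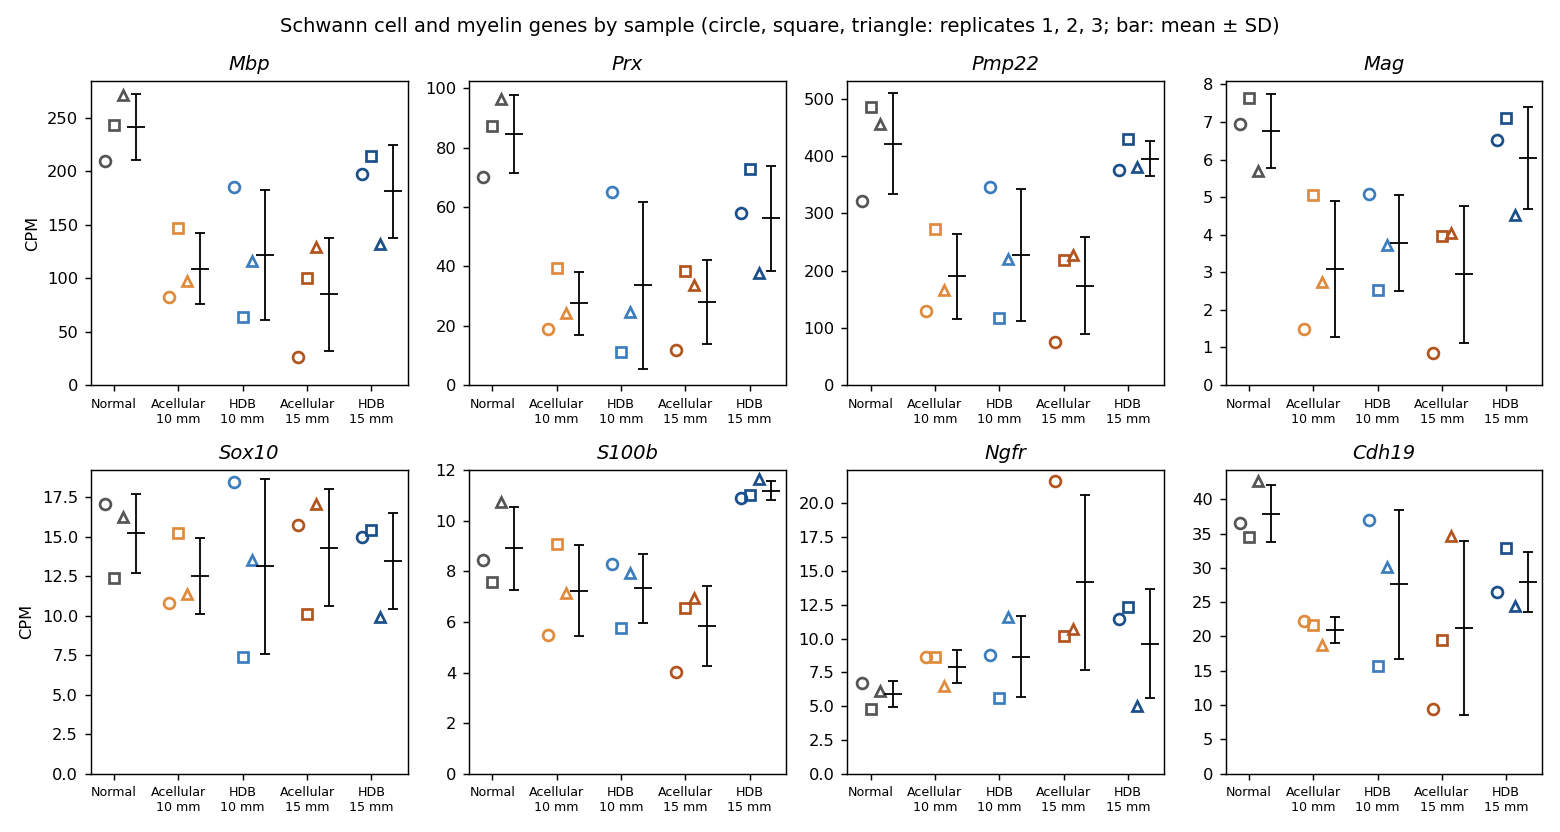
Level of each of the 8 genes (CPM, linear axis from 0) in the 15 samples; circles, squares and triangles are replicates 1, 2 and 3, and the bar gives the mean ± SD of 3 samples. Mbp, Prx, Pmp22 and Mag were lowest in acellular 15 mm replicate 1 or, for Prx, in HDB 10 mm replicate 2, while Sox10 overlapped in all groups and Ngfr was highest in acellular 15 mm replicate 1, at 21.7 CPM.

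The lineage genes differed from this and from each other. Sox10 stood at 17.1, 12.4 and 16.2 CPM in normal skin, and between 7.37 and 18.5 CPM over the 12 wound samples. All 4 wound groups overlapped normal skin. Cdh19 stood at 36.5, 34.6 and 42.6 CPM in normal skin, 22.3, 21.7 and 18.7 CPM in acellular 10 mm and 9.47, 19.5 and 34.7 CPM in acellular 15 mm skin. It stood at 37.0, 15.8 and 30.1 CPM in HDB 10 mm and at 26.5, 32.9 and 24.5 CPM in HDB 15 mm skin. Cdh19 thus lay below normal in every sample of the acellular 10 mm and HDB 15 mm groups, and overlapped it in HDB 10 mm and acellular 15 mm skin.

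S100b was the most even of the members in HDB 15 mm skin, at 10.9, 11.0 and 11.6 CPM, a coefficient of variation of 3.45%. Normal skin held 8.43, 7.57 and 10.7 CPM, acellular 10 mm skin 5.48, 9.10 and 7.13 CPM, acellular 15 mm skin 4.02, 6.54 and 6.96 CPM and HDB 10 mm skin 8.29, 5.76 and 7.94 CPM. The HDB 15 mm samples were the highest of all 15. Ngfr ran the other way from the myelin genes, with 6.74, 4.82 and 6.10 CPM in normal skin and 21.7, 10.2 and 10.7 CPM in acellular 15 mm skin. It stood at 8.62, 8.65 and 6.49 CPM in acellular 10 mm skin. Under HDB it stood at 8.76, 5.60 and 11.6 CPM in the smaller wounds and 11.5, 12.4 and 5.03 CPM in the larger ones. Only the acellular 15 mm group lay wholly above normal skin.

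The comparisons with normal skin ask how far each healed wound had returned to the levels of unwounded tissue. They share the 3 normal samples. In acellular 15 mm skin Mbp fell by 1.51 ± 0.50 (log2, SE; adjusted p = 0.0389, edgeR's quasi-likelihood test) and Pmp22 fell by 1.28 ± 0.44 (adjusted p = 0.0453), while Ngfr rose by 1.27 ± 0.39 (adjusted p = 0.0300). These 3 of 8 members called (37.5%) compare with 30.2% of all genes tested, a share near the background. By direction, 2 members fell where 12.6% of all genes did, and 1 rose where 17.6% did. At an unadjusted p under 0.05 there were 7 members, and 43.8% of all genes. Prx had a log2 fold change of -1.59 ± 0.57 (adjusted p = 0.0509), Mag of -1.19, Cdh19 of -0.84, S100b of -0.61 and Sox10 of -0.09, and none of these passed edgeR's test. DESeq2 called 4 members here, Mbp, Prx, Pmp22 and Ngfr. The shares given are edgeR's, and DESeq2's own share of all genes is not given, so its 4 members were not set against a background. In this comparison 5 members lay wholly below normal, as did 21.5% of all genes, and 1 lay wholly above, as did 22.5%. The calls rested on few samples. Without acellular 15 mm replicate 1 no member was called, with Mbp at -1.08, Pmp22 at -0.92 and Ngfr at 0.83, and no member was called when any single normal sample was left out. With the replicate number as a block only Ngfr was called (1 member), and with only the compared groups in the fit there were 0.

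In acellular 10 mm skin 0 of 8 members passed edgeR's test, against 20.3% of all genes. The log2 fold changes were -1.62 ± 0.57 for Prx (adjusted p = 0.0602), -1.15 ± 0.44 for Pmp22 (adjusted p = 0.0772), -1.15 ± 0.49 for Mbp, -1.13 ± 0.53 for Mag and -0.86 ± 0.38 for Cdh19. An unadjusted p under 0.05 was found for 4 members and 38.3% of all genes. DESeq2 called 2 members, Prx and Pmp22, and its own share of all genes is not given here. Samples of Mbp, Prx, Pmp22, Mag and Cdh19 lay wholly below normal skin, as did 27.2% of all genes. The exact two-sided permutation test cannot go below 0.1 with 3 samples against 3. Fitted on the 2 groups alone, Mbp, Prx, Pmp22 and Cdh19 were called, 4 members, along with 6196 genes in all.

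HDB 10 mm skin gave 0 called members by edgeR and by DESeq2, against 12.3% of all genes by edgeR and 3288 genes by DESeq2. At an unadjusted p under 0.05 there were 1 member and 31.6% of all genes. The lowest value was that of Prx, at -1.34 ± 0.57, followed by Mbp at -0.99 ± 0.49, Pmp22 at -0.89 ± 0.44 and Mag at -0.84 ± 0.53. Mbp, Prx and Mag lay wholly below normal skin, as did 23.4% of all genes. The samples of this group were far apart, since Prx ran from 11.1 to 65.0 CPM. Without replicate 1, Prx was at -2.23 and was called (adjusted p = 0.0192), among 2725 genes in all, in place of 1895.

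In HDB 15 mm skin the myelin genes were nearest to normal. Pmp22 was at -0.09 ± 0.43, Mag at -0.16 ± 0.52, Mbp at -0.41 ± 0.49 and Prx at -0.59 ± 0.56, and S100b was at 0.33 ± 0.25 and Ngfr at 0.71 ± 0.39. No member was called by edgeR or DESeq2 (0 of 8), against 5.18% of all genes by edgeR and 2349 genes by DESeq2. At an unadjusted p under 0.05 there were 0 members, against 26.9% of all genes. The SEs were as wide as in the other groups. S100b lay wholly above normal skin, as did 23.8% of all genes, and Cdh19 wholly below, as did 22.6%.

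Over all 12 wound samples, Prx fell by 1.29 ± 0.41 (adjusted p = 0.0318) and Mbp fell by 1.01 ± 0.36 (adjusted p = 0.0497) against normal skin, 2 of 8 members where 30.9% of all genes were called and 16.7% were called lower. At an unadjusted p under 0.05 there were 5 members and 43.7% of all genes. The exact two-sided permutation test on log2 CPM gave p = 0.0132 for Prx and p = 0.0418 for Mbp. Pmp22 was at -0.85 ± 0.32 (adjusted p = 0.0634), Mag at -0.83, Cdh19 at -0.65, S100b at -0.22, Sox10 at -0.19 and Ngfr at 0.74. DESeq2 called 3 members, Mbp, Prx and Pmp22, and its own share of all genes is not given here. No member's 12 wound samples lay wholly outside the normal range, against 11.1% of all genes wholly below it and 9.86% wholly above. Neither call held when any single normal sample was left out. The Mbp call was also lost without 8 of the 12 wound samples in turn, whereas Prx was lost without HDB 10 mm replicate 3 or HDB 15 mm replicate 3.

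**Figure D2:**
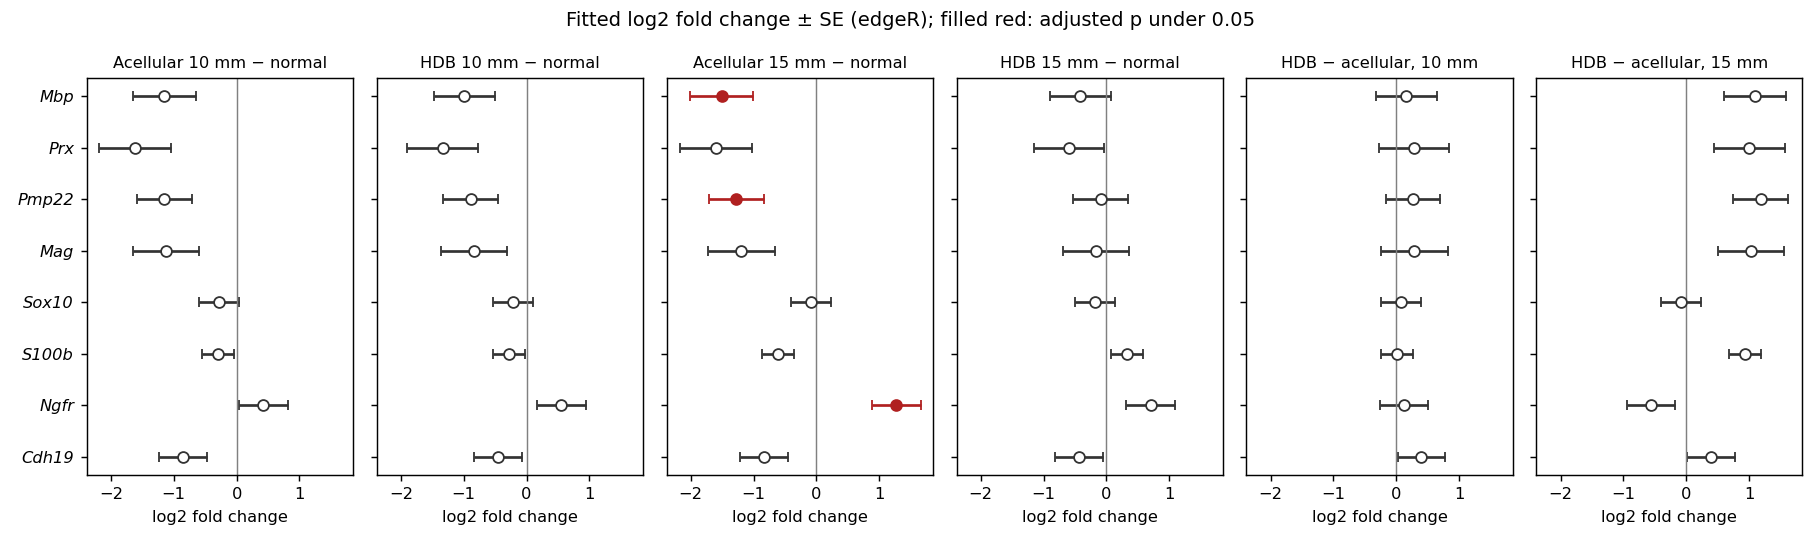
Fitted log2 fold change (x axis) with its SE for the 8 genes in 6 comparisons; filled red points have an adjusted p under 0.05. Mbp, Pmp22 and Ngfr in acellular 15 mm skin are the filled points, and at 15 mm the HDB minus acellular values of Mbp, Prx, Pmp22, Mag and S100b lie between 0.94 and 1.19.

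The comparison of HDB with acellular beads asks what the cells in the beads changed. In 10 mm wounds the 8 values lay between 0.02 for S100b and 0.40 for Cdh19, and all but that of Cdh19 were smaller than their SE. Pmp22 was at 0.26 ± 0.43 and Mbp at 0.16 ± 0.49. No member was called by edgeR or DESeq2 and 0 had an unadjusted p under 0.05, and no gene at all was called by edgeR (0 of 15369, 543, or 3.53%, at an unadjusted p under 0.05 and 15 by DESeq2). The bead groups overlapped for every member, while 4.53% of all genes lay wholly higher and 6.47% wholly lower under HDB.

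In 15 mm wounds 6 of the 8 values were above 0 and those of Sox10 and Ngfr below. Pmp22 was at 1.19 ± 0.44 (adjusted p = 0.137), a fitted ratio of 2.28, Mbp at 1.09 ± 0.49 (adjusted p = 0.207), Mag at 1.03 ± 0.53 (adjusted p = 0.264), Prx at 1.00 ± 0.56 (adjusted p = 0.303) and S100b at 0.94 ± 0.26 (adjusted p = 0.0664). None was called by edgeR (0 of 8, against 2.93% of all genes). With the replicate block 0 members and 179 genes were called, in place of 450 genes. At an unadjusted p under 0.05 there were 3 members, against 23.2% of all genes. DESeq2 called S100b (adjusted p = 0.00797), among 1770 genes in all. Mbp, Pmp22, Mag and S100b did not overlap between the groups, with all HDB samples higher, as was the case for 8.55% of all genes. By replicate number Prx too was higher under HDB in 3 of 3 pairs. The smallest p of the unpaired exact permutation test is 0.1 here. Cdh19 was at 0.40 ± 0.38, Sox10 at -0.09 ± 0.32 and Ngfr at -0.56 ± 0.38. Without acellular 15 mm replicate 1 the value of Pmp22 was 0.83, that of Mbp 0.66 and that of S100b 0.73, with no member called. Without replicate 3 of that group S100b was called (adjusted p = 0.0322), among 2322 genes in all, in place of 450.

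Adipocyte markers, which matter for S100b, summed to 2451 to 9267 CPM over 12 genes in HDB 15 mm and to 2542 to 6996 CPM in acellular 15 mm skin, so these groups overlapped. Melanocyte markers summed to 224 to 272 CPM in HDB 15 mm and to 159 to 3136 CPM in acellular 15 mm skin. Skeletal muscle markers summed to 11600 to 34648 CPM and 922 to 25049 CPM in the same order. Fibroblast and dermal matrix markers summed to 9826 to 20982 CPM and 4184 to 16687 CPM, with means of 16351 and 8653 CPM. Those of the hair shaft and inner root sheath summed to 159 to 764 CPM and 49.0 to 22469 CPM. Their part in the 15 mm values was not tested.

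With both wound sizes together, 0 of 8 members were called (0% of all genes, and 0 members by DESeq2), and 2 had an unadjusted p under 0.05 (15.8% of all genes), Pmp22 at 0.73 ± 0.31 and S100b at 0.48 ± 0.18. The exact two-sided permutation test within sizes gave p = 0.09 for Pmp22 and p = 0.05 for S100b. The difference of the treatment effect between sizes was 0.92 ± 0.36 for S100b (adjusted p = 0.289), 0.92 ± 0.61 for Pmp22 (adjusted p = 0.558) and 0.93 ± 0.69 for Mbp (adjusted p = 0.606). No member passed that test by edgeR or DESeq2 (0% of all genes called by edgeR), and S100b was the 1 member with an unadjusted p under 0.05, against 13.4% of all genes. It is therefore not shown that the bead effect on these genes differed between 10 mm and 15 mm.

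Wound size within each treatment gave 0 called members as well, by edgeR and by DESeq2, and 0% of all genes called by edgeR. At an unadjusted p under 0.05 there was 1 member in acellular skin, Ngfr, against 17.5% of all genes, and 1 in HDB skin, S100b, against 12.3%. In acellular skin Ngfr was at 0.84 ± 0.38 for 15 mm against 10 mm (adjusted p = 0.284) and the 1 member whose groups did not overlap, against 8.39% of all genes higher without overlap. In HDB skin Pmp22 was at 0.80 ± 0.44 and S100b at 0.61 ± 0.25, 2 members higher without overlap, against 11% of all genes. The median over the 8 members was -0.02 in acellular and 0.59 in HDB skin, beside 0.06 and 0.02 over all genes.

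The members were also set against each other, sample by sample. Over the 15 samples the Pearson correlation of log2 CPM with Mbp was 0.95 for Pmp22, 0.94 for Mag, 0.93 for Prx, 0.92 for Cdh19 and 0.84 for S100b. It was 0.38 for Sox10 and -0.47 for Ngfr. These points share libraries and groups and are given as a description. With the group means removed the values were 0.94 for Pmp22, 0.91 for Mag, 0.92 for Prx, 0.91 for Cdh19 and 0.83 for S100b, so the myelin genes moved together among samples of the same treatment too. Sox10 then stood at 0.43 and Ngfr at -0.11 with Mbp, and at 0.67 with each other.

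**Figure D3:**
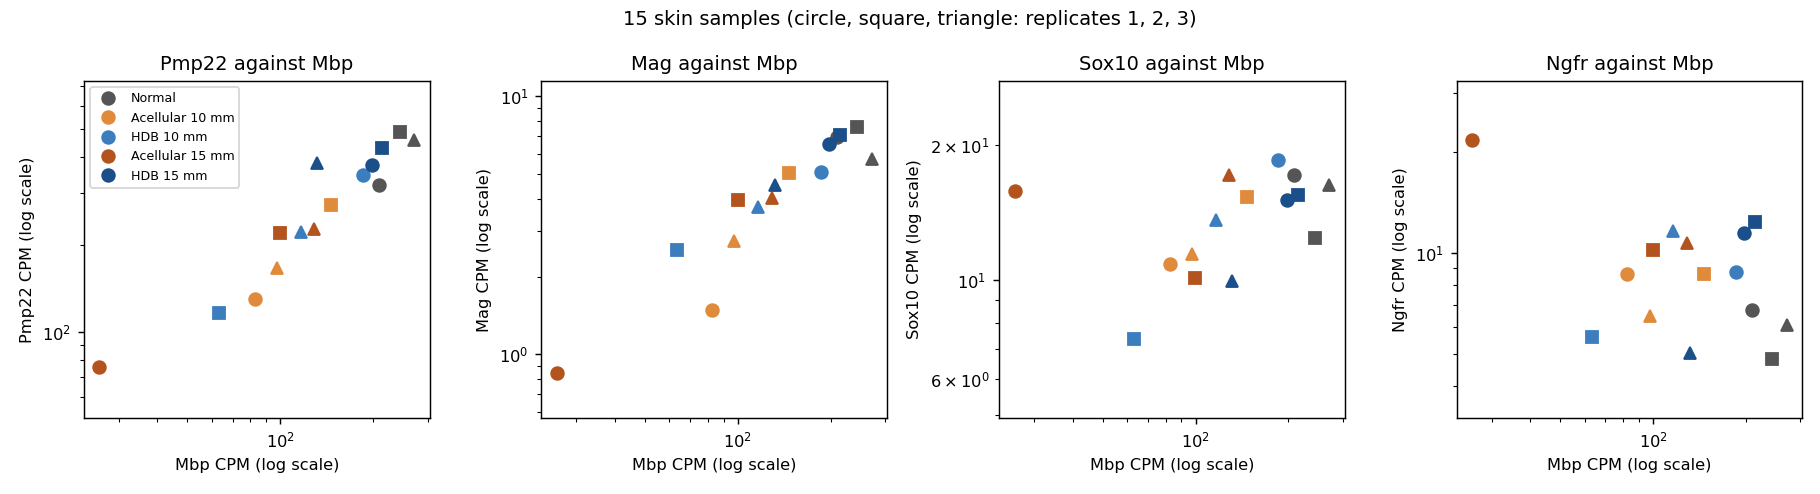
Pmp22, Mag, Sox10 and Ngfr against Mbp in the 15 samples (CPM, both axes logarithmic), coloured by group. Pmp22 and Mag rise with Mbp along the whole range, from acellular 15 mm replicate 1 at 26.0 CPM of Mbp to normal skin at 271 CPM, whereas Sox10 and Ngfr do not.

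Acellular 15 mm replicate 1 held the lowest Mbp, Pmp22, Mag, S100b and Cdh19 of all samples, with Sox10 at 15.8 CPM and the highest Ngfr. Ratios within samples show the same thing without a library scale. Ngfr over Mbp was 0.0249 ± 0.00654 in normal skin and 0.0514 ± 0.0114 in HDB 15 mm skin (SD, n = 3), and reached 0.834 in that sample. Pmp22 over Mbp was 1.74 ± 0.237 in normal, 2.29 ± 0.590 in acellular 15 mm and 2.27 ± 0.538 in HDB 15 mm skin. In HDB 10 mm replicate 2 all 8 members were the lowest of their group, Sox10 included, at 7.37 CPM.

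Genes most like the members, by correlation over the 15 samples, were searched among all genes tested. The mean of the 8 standardized members was closest to Pllp (plasmolipin, a myelin membrane protein) at 0.97 and Cnp (a phosphodiesterase of myelin) at 0.96, followed by Sorcs1, Hepacam, Gatm, Aatk, Mgat3, Tspan15, Reln and Ntng1, the last at 0.95. Mbp was closest to Cnp (0.98), Cd59a and Cldn19, a claudin of Schwann cells. Cnp (0.97) and Pllp were among the genes closest to Pmp22. Prx was closest to Sfrp5 (0.97), to Drp2, its partner in the Schwann cell membrane, and to Ncmap, a protein of non-compact myelin.
Mag was closest to Scarf1 (0.97), Cldn19 and Cnp, and Cdh19 to Prdm16 (0.96), Nfasc and Il16. S100b was closest to Cmtm5 (0.93), Mettl21a and Apod. Sox10 had no gene so close, with Mmd2 at 0.77, Cc2d2a and Zfp493, and Ngfr was closest to S1pr3 (0.88), Pkp2 and Slc19a1.

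Among the other genes of myelin, 22 of 25 listed passed the filter (Mobp, Mog and Opalin did not). Their median log2 fold change against normal skin was -1.03 at 10 mm and -1.02 at 15 mm under acellular beads, and -0.73 and -0.09 under HDB, where the median over all genes lay between 0.02 and 0.06. The summed level of all 25 went the other way at 10 mm, with 1546 to 1779 CPM in acellular and 1543 to 1987 CPM in HDB skin against 1357 to 1470 CPM in normal skin. Fa2h alone gave 1141 to 1275 CPM of the acellular 10 mm sum and 431 to 649 CPM of the normal one. Few passed the test, with 2 higher and 1 lower in acellular 10 mm and 2 higher and 2 lower in acellular 15 mm skin, where 20.3% and 30.2% of all genes were called. Under HDB 1 gene was called at each size, Fa2h at 10 mm and Mpzl1 at 15 mm, both higher, where 12.3% and 5.18% of all genes were called. In HDB 10 mm skin 5 of the 22 had an unadjusted p under 0.05, against 31.6% of all genes, and DESeq2 called 3. Drp2 stood at 42.3, 46.3 and 62.5 CPM in normal and at 5.10, 16.5 and 17.4 CPM in acellular 15 mm skin, and fell by 1.95 ± 0.54 (adjusted p = 0.0198). Ncmap fell there by 1.55 ± 0.51 (adjusted p = 0.0393). Among the 15 alternatives tried, Drp2 was called in 12 and Ncmap in 9. The genes that rose were Mpzl1, a broadly expressed membrane protein, by 0.51 ± 0.15 (called in 10 of the 15), and Cntnap1, a protein of the axon beside the node, by 0.94 ± 0.30 (called in 8). Cntnap1 was at 0.47 without acellular 15 mm replicate 1. In acellular 10 mm skin Fa2h, a fatty acid hydroxylase made in skin by keratinocytes and sebaceous glands as well, rose by 1.22 ± 0.27 (adjusted p = 0.0137), and Arhgef10 fell by 0.72 ± 0.22, with calls in 13 and 7 of 15 alternatives.

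Over all wounds the counts for this list were 2 higher and 3 lower of 22, beside 30.9% of all genes called, with Drp2 (log2 fold change -1.46 ± 0.38, adjusted p = 0.0139), Arhgef10 and Ncmap lower and Mpzl1 and Fa2h higher. HDB against acellular gave 0 called genes at either size by edgeR, where 0% and 2.93% of all genes were called. At an unadjusted p under 0.05 there were 0 and 6, against 3.53% and 23.2% of all genes, and DESeq2 called 0 and 1. The medians were 0.24 at 10 mm and 0.90 at 15 mm, beside -0.01 and 0.00 over all genes. At 15 mm 19 of the 22 had a value above 0.

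**Figure D4:**
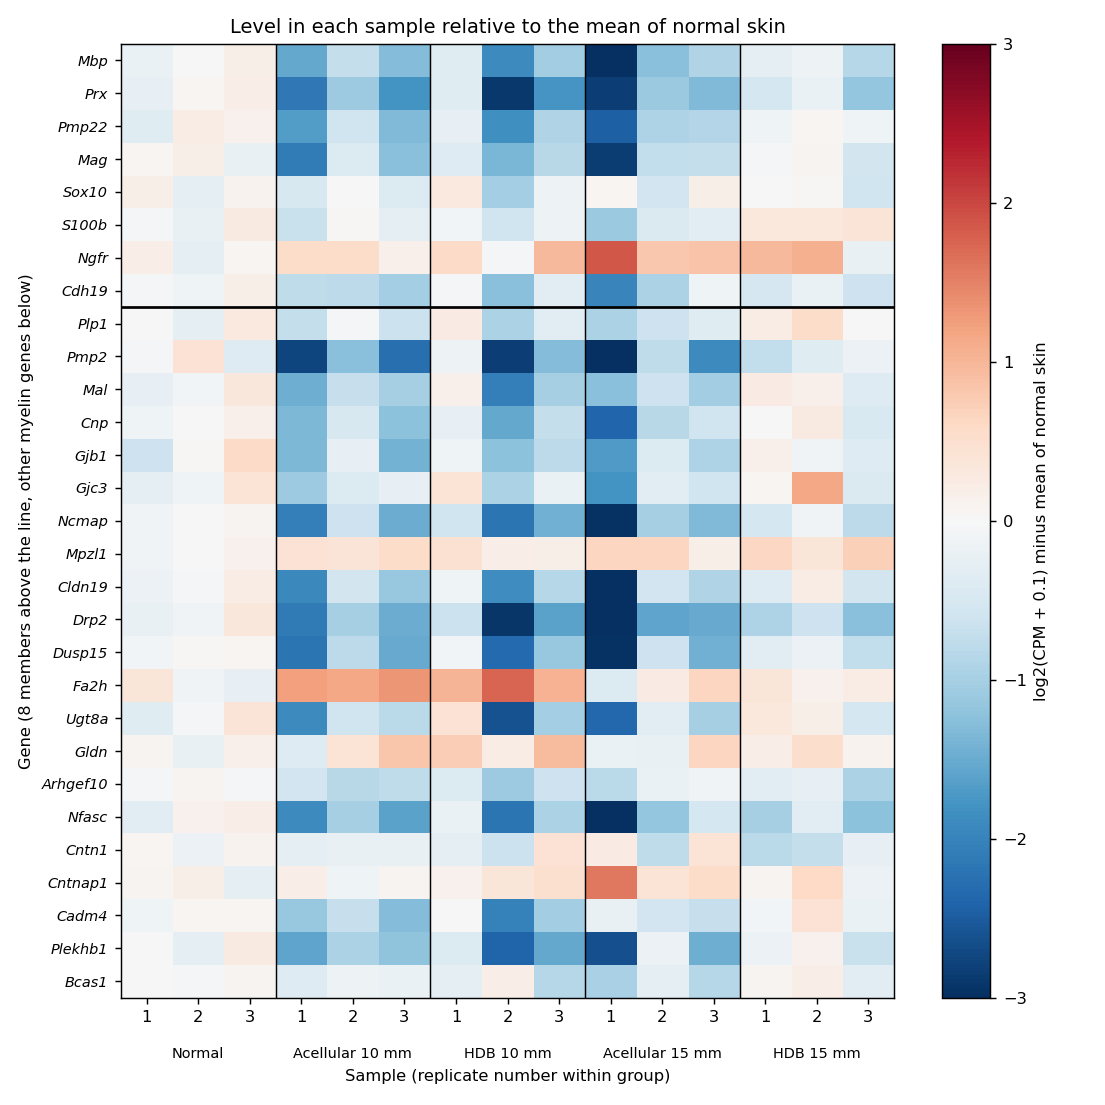
Level of the 8 members (above the line) and of 21 other myelin genes (below) in each sample, as log2(CPM + 0.1) minus the mean of normal skin; blue is lower and red higher. Most myelin genes are blue in acellular 15 mm replicate 1 and HDB 10 mm replicate 2 and near white in HDB 15 mm skin, while Ngfr, Fa2h and Mpzl1 are red in most wound samples.

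Regulators of Schwann cells were a further list. Of 19 tested (Pou3f2 did not pass the filter), 7 rose and 2 fell in acellular 10 mm, 8 rose and 1 fell in acellular 15 mm, 3 rose in HDB 10 mm and 2 rose in HDB 15 mm skin against normal. The shares of all genes called were 20.3%, 30.2%, 12.3% and 5.18% in the same order. Egr2, the transcription factor that switches on myelin genes, stood at 51.7, 44.6 and 38.6 CPM in normal and 141, 208 and 246 CPM in acellular 10 mm skin, a rise of 2.14 ± 0.27 (adjusted p = 0.00276). It rose by 1.29 ± 0.27 in the larger acellular wounds, and under HDB by 1.61 ± 0.27 at 10 mm and 1.22 ± 0.27 at 15 mm, the last called in 8 of 15 alternatives. Erbb3, the receptor through which neuregulin reaches Schwann cells, rose by 0.86 ± 0.16 and 0.78 ± 0.16 under acellular beads at 10 mm and 15 mm, and by 0.73 ± 0.16 under HDB at 10 mm. Tfap2a, Erbb2 and Egr1 were among the others that rose in acellular 10 mm skin, by 1.55 ± 0.27, 0.79 ± 0.17 and 2.65 ± 0.41. These genes are also expressed in epidermis and hair follicles. Over all wounds 8 of 19 rose and 1 fell, where 30.9% of all genes were called. Between HDB and acellular skin none was called by edgeR at 10 mm or 15 mm (0 of 19, with 2 and 6 at an unadjusted p under 0.05, 0 and 2 by DESeq2, and medians of -0.14 and -0.22). Over all genes the unadjusted shares were 3.53% and 23.2%, with 0% and 2.93% called.

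Nrg1, the ligand of Erbb3 made by axons and other cells, stood at 0.70, 0.60 and 0.34 CPM in normal skin and at 11.5, 3.15 and 1.75 CPM in acellular 15 mm skin, a rise of 3.31 ± 0.73 (adjusted p = 0.00854), with 2.15 when acellular 15 mm replicate 1 was left out. Its highest level was in that sample.

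Of the genes of non-myelinating and repair Schwann cells, 25 of 26 were tested (Gfap did not pass the filter). Against normal skin 1 rose and 3 fell in acellular 10 mm, 1 rose and 6 fell in acellular 15 mm, 0 were called in HDB 10 mm (7 at an unadjusted p under 0.05, 6 by DESeq2) and 1 rose in HDB 15 mm skin. These are 4 and 7 of 25 in the acellular groups, near the 20.3% and 30.2% of all genes called. The shares were 12.3% called and 31.6% unadjusted in HDB 10 mm and 5.18% called in HDB 15 mm skin. Gap43, a growth cone and repair Schwann cell protein, stood at 2.18, 3.08 and 3.62 CPM in normal, 0.29, 0.67 and 0.53 CPM in acellular 10 mm and 0.23, 0.93 and 1.12 CPM in acellular 15 mm skin. It fell by 2.56 ± 0.51 (adjusted p = 0.00914) and by 1.95 ± 0.49 (adjusted p = 0.0130). Art3, Aspa, Fxyd1 and Cryab fell in acellular 15 mm skin by 1.74, 1.59, 2.14 and 2.26. Of these at least Cryab and Art3 are also strongly expressed in skeletal muscle, whose markers were lower there as well. Of 15 alternatives Art3 was called in 8, Aspa in 7, Fxyd1 in 11 and Cryab in 8, and Cryab was at -3.61 without acellular 15 mm replicate 2. Runx2 was the gene of this list that rose in acellular skin, by 1.10 ± 0.36 at 10 mm, called in 4 of 15 alternatives, and 1.80 ± 0.36 at 15 mm, called in 14. Matn2, a matrix protein laid down along regrowing axons, rose in HDB 15 mm skin by 0.81 ± 0.15 (adjusted p = 0.0216), from 60.1, 67.0 and 61.5 CPM in normal to 95.3, 125 and 111 CPM. It was called in 11 of 15 alternatives.

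Transcripts of axons were scarce. Of 24 genes listed 13 were tested, and among those that did not pass the filter were Nefl, Nefm, Nefh, Scn10a and Calca. Over the 23 that were quantified, the sum was 79 to 119 CPM in normal skin. It was 60 to 67 CPM in acellular 10 mm and 48 to 94 CPM in HDB 10 mm skin. At 15 mm it was not lower, at 106 to 168 CPM in acellular and 103 to 144 CPM in HDB skin. The genes of this list called over all wounds were Stmn2, Th and Tac1, all lower, where 16.7% of all genes were called lower. Stmn2, a tubulin-binding protein of growing axons, stood at 8.01, 6.70 and 9.46 CPM in normal skin and between 1.40 and 4.91 CPM in the wounds, and fell by 1.52 ± 0.30 over all wounds (adjusted p = 0.00481). Th, the rate-limiting enzyme of catecholamine synthesis in sympathetic axons, stood at 11.0, 9.17 and 10.1 CPM in normal and between 0.16 and 5.68 CPM in the wounds, and fell by 2.74 ± 0.67 (adjusted p = 0.0113). All 12 wound samples lay below normal skin for both genes, as they did for 11.1% of all genes. In HDB 10 mm skin 0 of the 13 axon genes were called by edgeR (3 at an unadjusted p under 0.05, 2 by DESeq2), where 12.3% of all genes were. Tac1, the precursor of substance P, fell by 2.84 ± 0.56 over all wounds, from 2.53, 0.40 and 0.74 CPM in normal skin, so few counts stand behind it, and by 1.75 at the least over the alternatives. Between HDB and acellular skin 0 of 13 were called by edgeR at either size, where 0% and 2.93% of all genes were. At an unadjusted p under 0.05 there were 1 and 1, against 3.53% and 23.2% of all genes, and DESeq2 called 0 and 1. The medians were 0.48 at 10 mm and 0.05 at 15 mm. In acellular 15 mm skin Stmn2, Th and Tac1 were called lower against normal, as were 12.6% of all genes. In acellular 10 mm skin Stmn2 and Tac1 were, where 20.3% of all genes were called. Tubb3, a tubulin of neurons that other growing cells also make, was the 1 gene of the list called higher, in acellular 15 mm skin, as were 17.6% of all genes. Tubb3 stood at 31.0, 3.97 and 0.42 CPM there against 0.07, 0.33 and 0.07 CPM in normal skin. Its fitted log2 fold change of 6.15 ± 1.48 (adjusted p = 0.0115) ran from 3.73, without acellular 15 mm replicate 1, to 7.26 over the alternatives.

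Prx and Mbp were also correlated with lists of other cell types. Over the 15 samples the correlation with the mean log2 CPM of the smooth muscle and pericyte list was 0.92 for Prx and 0.86 for Mbp, with endothelium 0.83 and 0.76, and with skeletal muscle 0.77 and 0.66. With group means removed these were 0.91 and 0.88, 0.73 and 0.74, and 0.66 and 0.40. The macrophage and dendritic list gave 0.69 and 0.76, and 0.40 and 0.61 with group means removed. The fibroblast and dermal matrix list gave 0.58 and 0.63, and 0.38 and 0.54 with group means removed. Pmp22, Mag and S100b were at 0.74, 0.70 and 0.67 with that list, and at 0.61, 0.52 and 0.51 with group means removed. Ngfr was at -0.30, -0.19 and -0.27 with smooth muscle, endothelium and skeletal muscle, and Sox10 at 0.47, 0.52 and 0.35. With group means removed Ngfr was at 0.02, 0.39 and 0.24, so its sign turned, and Sox10 at 0.49, 0.66 and 0.35. The correlation with the melanocyte list was -0.79 for Mbp, 0.63 for Ngfr and 0.05 for Sox10, and with the hair shaft list -0.67, 0.65 and -0.15. With group means removed these were -0.72, 0.49 and 0.15, and -0.62, 0.39 and -0.15. For comparison, the other myelin genes gave 0.97 for Prx, 0.96 for Mbp, -0.32 for Ngfr and 0.46 for Sox10. Melanocytes also carry Sox10, and 9 of their 12 markers were called higher in acellular 15 mm skin, against 17.6% of all genes, whereas Sox10 was at -0.09 there. Their sum was 3136, 159 and 267 CPM in that group against 124 to 214 CPM in normal skin, and 1 marker was called without acellular 15 mm replicate 1, without normal replicate 1 or without normal replicate 3. The part of these cell types in the levels of the members was not tested.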

How the data were processed

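Poly(A) RNA of 15 skin samples in 5 groups was sequenced at BGI. The authors deposited estimated counts per gene and sample, not normalized (unit: expected counts). The submitters' processing notes name HISAT2 2.0.4, Bowtie2 2.2.5, RSEM 1.2.12 and GRCm38.p6. Between 2074 and 2237 genes per sample held decimals, and counts were rounded before testing. Human transcripts of the implanted cells were not separated. The authors' methods name DESeq2 and FPKM, and FPKM values were not used here.

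Genes were filtered with filterByExpr, scaled with TMM and tested with edgeR 4.0.16 (R 4.3.3) in a quasi-likelihood model of the 5 group means. Benjamini-Hochberg adjusted p under 0.05 over all 15369 genes counted as called. CPM are TMM-scaled, with 2 counts added before taking log2. The log2 CPM of the samples also entered two-sided exact permutation tests, and the edgeR test was checked on simulated data. Alternatives were DESeq2 1.42.0, RLE factors, other filters, a length trend (GENCODE transcripts), the replicate block, only the compared groups and leaving out each sample.

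The members, gene lists and tests were chosen with earlier results of these data known. Named genes were all 8 members, up to 6 called genes of each nerve list per comparison by adjusted p, the gene of each list with the highest level, and the genes most correlated with the members; 1 gene of the myelin list is counted there but not reported here by name or drawn. Same-numbered samples deviated together in every pair (correlations 0.397, 0.167 and 0.183) only between acellular 15 mm and HDB 15 mm skin. Samples were therefore compared number by number there alone, and the unpaired model stayed the primary one. The block was an alternative that tied the numbers in all 5 groups at once, normal skin included. It was thus not a paired test of the 15 mm comparison alone. Between HDB 10 mm and HDB 15 mm skin the correlation of replicate 2 was -0.54. The labels do not say what they mark.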

Additional observations from a re-analysis of the deposited data

How the results depend on the processing

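Of 1180 log2 fold changes of the members under alternatives, 1090 kept their direction and side of the threshold, 42 lost the call, 20 gained it and 28 changed sign. Sign changes other than those from leaving out a sample all concerned Sox10 near 0: HDB against acellular was -0.0014 at 10 mm (length trend removed with the replicate block), and over both sizes 0.0041 (stricter filter) and 0.010 (compared groups only). Leaving out 1 sample gave these ranges across 0. Sox10 ran from -0.24 to 0.11 (acellular 15 mm against normal), -0.53 to 0.078 (HDB 10 mm), -0.30 to 0.0012 (HDB 15 mm), and HDB against acellular from -0.23 to 0.37 (10 mm), -0.29 to 0.090 (15 mm) and -0.17 to 0.13 (both sizes). In HDB 15 mm against normal, Pmp22 ran from -0.24 to 0.029 and Mag from -0.29 to 0.0084. In HDB against acellular at 10 mm, Mbp ran from -0.25 to 0.49, Prx from -0.60 to 0.72, Pmp22 from -0.15 to 0.62, Mag from -0.048 to 0.83, S100b from -0.15 to 0.22 and Ngfr from -0.14 to 0.38, and Ngfr over both sizes from -0.35 to 0.0047. The cause was not tested.

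Called members changed from 0 in acellular 10 mm against normal to 4 (compared groups only) and 2 (DESeq2), from 3 in acellular 15 mm to 0 (compared groups only), from 2 over all wounds to 1 without the filter, and from 0 in HDB against acellular at 15 mm to 1 (DESeq2). Ranges over samples left out in turn were 0 to 4 for acellular 15 mm, 0 to 4 for all wounds, 0 to 1 for HDB 10 mm, 0 to 1 in HDB against acellular at 15 mm and 0 to 0 in the other comparisons.

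With the replicate block, alone or with the length trend removed, 1 member was called in acellular 15 mm (1 with the trend) and 1 over all wounds (1 with the trend), and no call of a member changed in the other comparisons. Normal skin shared only numbers with the wound groups. The block lowered the called genes from 1895 to 1187 (1200 with the trend) in HDB 10 mm, from 796 to 237 (228) in HDB 15 mm and from 450 to 179 (145) in HDB against acellular at 15 mm.

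Counts of called genes moved as follows. With only the compared groups there were 6196 and 972 under acellular beads at 10 mm and 15 mm, 2988 and 3401 under HDB, and 0 in HDB against acellular at 15 mm. DESeq2 gave 3288 in HDB 10 mm, 2349 in HDB 15 mm, and 15, 1770 and 223 in HDB against acellular at 10 mm, 15 mm and both sizes, 595 for treatment by size, 706 for size in acellular and 376 in HDB skin. A log2 fold change of at least 1 left 1667, 2085, 892, 392 and 1834 in acellular 10 mm, acellular 15 mm, HDB 10 mm, HDB 15 mm and all wounds against normal, and 57 in HDB against acellular at 15 mm, where no filter gave 199, the stricter filter 695 and the length trend removed 265. Leaving out 1 sample gave 800 to 1853, 2304 to 5805, 78 to 2725, 34 to 1340 and 1848 to 6229 in those 5 comparisons. It gave 0 to 0, 0 to 2322 and 0 to 229 in HDB against acellular at 10 mm, 15 mm and both sizes, 0 to 1 for treatment by size, 0 to 526 for size in acellular and 0 to 0 in HDB skin. The lowest against normal came without normal replicate 3 except in acellular 10 mm skin, and the highest in HDB against acellular at 15 mm without acellular 15 mm replicate 3. RLE factors and TMM without keratin genes moved the median of all genes by less than 0.03.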
